A study of Homo sapiens with 12 samples.

Results

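The endoplasmic reticulum folding and degradation genes described here are 35 named genes, chosen by name and not by any measured value. They comprise 9 chaperones and small proteins of the lumen, 3 genes of the calnexin and calreticulin cycle, 5 disulfide isomerases with their oxidase, 6 genes of ER-associated degradation, 5 stress sensors and transcription factors, and 7 genes of protein entry, signal peptide cleavage and export. Each gene was represented by the probe set with the highest mean over 12 arrays among those annotated to that gene alone, with the older symbol ERO1L accepted for ERO1A. In this way 34 of the 35 were measured, out of 19775 genes with a probe set of their own. SYVN1, the membrane ubiquitin ligase of ER-associated degradation, was not analysed here because its probe set is annotated to a microRNA gene as well.

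The arrays were Affymetrix HG-U133 Plus 2.0 oligonucleotide arrays of RNA from Hs578T and BT-20, both established human breast cancer cell lines, and the deposited values are log2 intensities. All cultures received 200 nM of a DNA oligonucleotide for 24 h with the liposomal transfection reagent DOTAP, at 3 µg per µg of DNA. The controls therefore carry the reagent too, and no untreated array was used here. The reagent followed the mass of DNA, which at equal molar dose was larger for the double-stranded than for the single-stranded oligonucleotides. The groups of each line were M, a double-stranded 30-base sequence of the CDH13 exon 1 region with methylated CpG cytosines, U, the same sequence unmethylated, the single-stranded CpG oligonucleotide ODN2006, and its control in which the CpGs are reversed to GpC. M and U had 2 arrays each per line, called set 1 and set 2 and labelled biological replicates, whereas ODN2006 and the control had 1 array each per line, coded in the same run of numbers as set 2. The p-values therefore measure the spread between these arrays. The oligonucleotides are shown because they define the treatment groups, with the CpG or GpC dinucleotides in which they differ, or which M carries methylated, in capitals.
ODN2006: tCGtCGttttgtCGttttgtCGtt
control ODN: tGCtGCttttgtGCttttgtGCtt
M and U, upper strand: tCGgatCGccCGgcaCGggcagggtgaggg

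The endoplasmic reticulum is where secreted and membrane proteins enter the secretory pathway, fold with the help of chaperones, form disulfide bonds and receive their sugar chains. Proteins that do not fold are sent back across the membrane to the proteasome. When unfolded proteins accumulate, the membrane sensors IRE1 (ERN1), PERK (EIF2AK3) and ATF6 start the unfolded protein response, in which the transcription factors XBP1 and ATF6 switch on many of the genes listed here, while PERK lowers translation and raises ATF4.

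A sequence that ATF6 and XBP1 are known to use in this response is the ER stress element, so the promoters of the members were searched for it. Promoters were the 250 bases before to the 50 bases after each transcript start in RefSeq (GRCh38.p14), and 32 members had one; none was listed for DERL1, PDIA3 and SEC24D. The ER stress element, CCAAT followed by 9 bases and CCACG, was searched on both strands, as was its second form, ATTGG followed by 1 base and CCACG. The first form was found in 7 of the 32 members (21.9%), namely HSPA5, HSP90B1, CRELD2, CALR, CANX, PDIA6 and XBP1, and in 0.0920% of the 27305 genes with a listed promoter (0.0770% of 35116 promoters). The second form was found in HYOU1, SDF2L1 and HERPUD1 (9.40% of the members) and in 0.07% of all genes. The XBP1 element TGACGTGG was present in HYOU1, where it overlaps a match of the second form, and in SSR3, and in 0.927% of all genes. The shorter CCAAT box, which is contained in the first form and, on the other strand, in the second, was present in 27 of the 32 members (84.4%) and in 39.7% of all genes.

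The 250 bases before the annotated start are given for 6 genes on which the comparisons below turn, 5′ to 3′ on the strand of the gene, so that the spacing of the elements can be seen. Capitals mark the ER stress element in HSPA5, HSP90B1, CALR and XBP1, its second form in HERPUD1, and the second form with the overlapping XBP1 element in HYOU1. A match is a description of the letters in these windows and not of factor binding.
HSPA5, chr9:125241344-125241593, minus strand: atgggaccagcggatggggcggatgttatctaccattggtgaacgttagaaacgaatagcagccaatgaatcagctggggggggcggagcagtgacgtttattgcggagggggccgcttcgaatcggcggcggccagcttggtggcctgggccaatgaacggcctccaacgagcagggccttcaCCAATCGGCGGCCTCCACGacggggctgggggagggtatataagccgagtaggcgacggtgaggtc
HSP90B1, chr12:103930160-103930409, plus strand: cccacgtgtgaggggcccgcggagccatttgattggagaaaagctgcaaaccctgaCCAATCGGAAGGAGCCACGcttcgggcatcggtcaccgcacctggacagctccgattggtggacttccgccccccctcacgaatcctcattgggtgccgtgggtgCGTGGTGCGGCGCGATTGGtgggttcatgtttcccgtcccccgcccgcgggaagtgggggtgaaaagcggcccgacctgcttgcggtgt
CALR, chr19:12938359-12938608, plus strand: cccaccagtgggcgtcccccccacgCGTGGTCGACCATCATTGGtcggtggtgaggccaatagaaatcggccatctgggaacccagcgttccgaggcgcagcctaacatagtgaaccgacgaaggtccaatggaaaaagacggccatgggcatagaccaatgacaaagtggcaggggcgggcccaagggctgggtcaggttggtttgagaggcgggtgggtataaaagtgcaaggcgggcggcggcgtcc
XBP1, chr22:28800570-28800819, minus strand: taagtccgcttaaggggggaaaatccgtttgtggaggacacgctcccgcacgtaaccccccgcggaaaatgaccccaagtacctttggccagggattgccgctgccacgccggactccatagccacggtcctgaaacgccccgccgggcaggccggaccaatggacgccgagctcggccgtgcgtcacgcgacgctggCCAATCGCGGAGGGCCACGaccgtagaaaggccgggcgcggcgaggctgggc
HYOU1, chr11:119057206-119057455, minus strand: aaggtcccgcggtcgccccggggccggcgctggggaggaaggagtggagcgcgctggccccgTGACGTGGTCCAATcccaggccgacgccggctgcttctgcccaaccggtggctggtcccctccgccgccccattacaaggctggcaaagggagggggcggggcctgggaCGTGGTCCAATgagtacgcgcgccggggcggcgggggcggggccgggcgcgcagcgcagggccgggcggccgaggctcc
HERPUD1, chr16:56931892-56932141, plus strand: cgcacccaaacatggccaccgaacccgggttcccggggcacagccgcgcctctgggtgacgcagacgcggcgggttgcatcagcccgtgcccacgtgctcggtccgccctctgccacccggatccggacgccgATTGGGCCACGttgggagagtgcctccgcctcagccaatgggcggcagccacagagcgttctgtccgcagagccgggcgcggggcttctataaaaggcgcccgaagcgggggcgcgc

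The 12 arrays had median log2 values of 3.01 to 3.09, and no pair held identical values. Every array resembled each other array of its own line more than any of the other line, the highest Pearson correlation of arrays from different lines being 0.906 over all probe sets. Each line showed the markers of its known type. All 12 epithelial markers were lower in Hs578T and all 14 mesenchymal markers were higher there, with CDH1 (E-cadherin) at 2.66 to 4.89 in Hs578T and 12.98 to 13.49 in BT-20, and VIM (vimentin) at 15.15 to 15.34 and 6.84 to 7.13, respectively. These markers move with every difference between the lines given below, and their part in those differences was not tested. The 7 blood cell markers measured lay under 5 on every array.

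Hs578T and BT-20 were first compared over the 8 M and U arrays, which addresses how far the folding machinery differs between the lines themselves. M and U of a set deviated together (correlation 0.599 in Hs578T and 0.595 in BT-20). They counted as separate arrays here, so the SEs and p-values of this comparison are likely too small. Most of the genes were higher in Hs578T. Of the 34 measured genes, 26 passed the test (76.5%; limma adjusted p under 0.05), against 74.6% of the 10410 genes tested, so that differing as such was about as frequent as among all genes. The direction was uneven: 22 members were higher in Hs578T (64.7%) against 34.4% of all genes, and 4 were lower (11.8%) against 40.2% of all genes. The median log2 difference of the members was 0.55, 27 of 34 lay above 0 (25 after centring on housekeeping genes), and that of all genes tested was -0.09. In the ODN arrays, whose values did not enter this comparison but whose test took its error from the M and U arrays, 25 members passed the test where 67.3% of all genes did; 22 of them were higher in Hs578T (29.7% of all genes) and 3 were lower (37.6% of all genes).

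**Figure D1:**
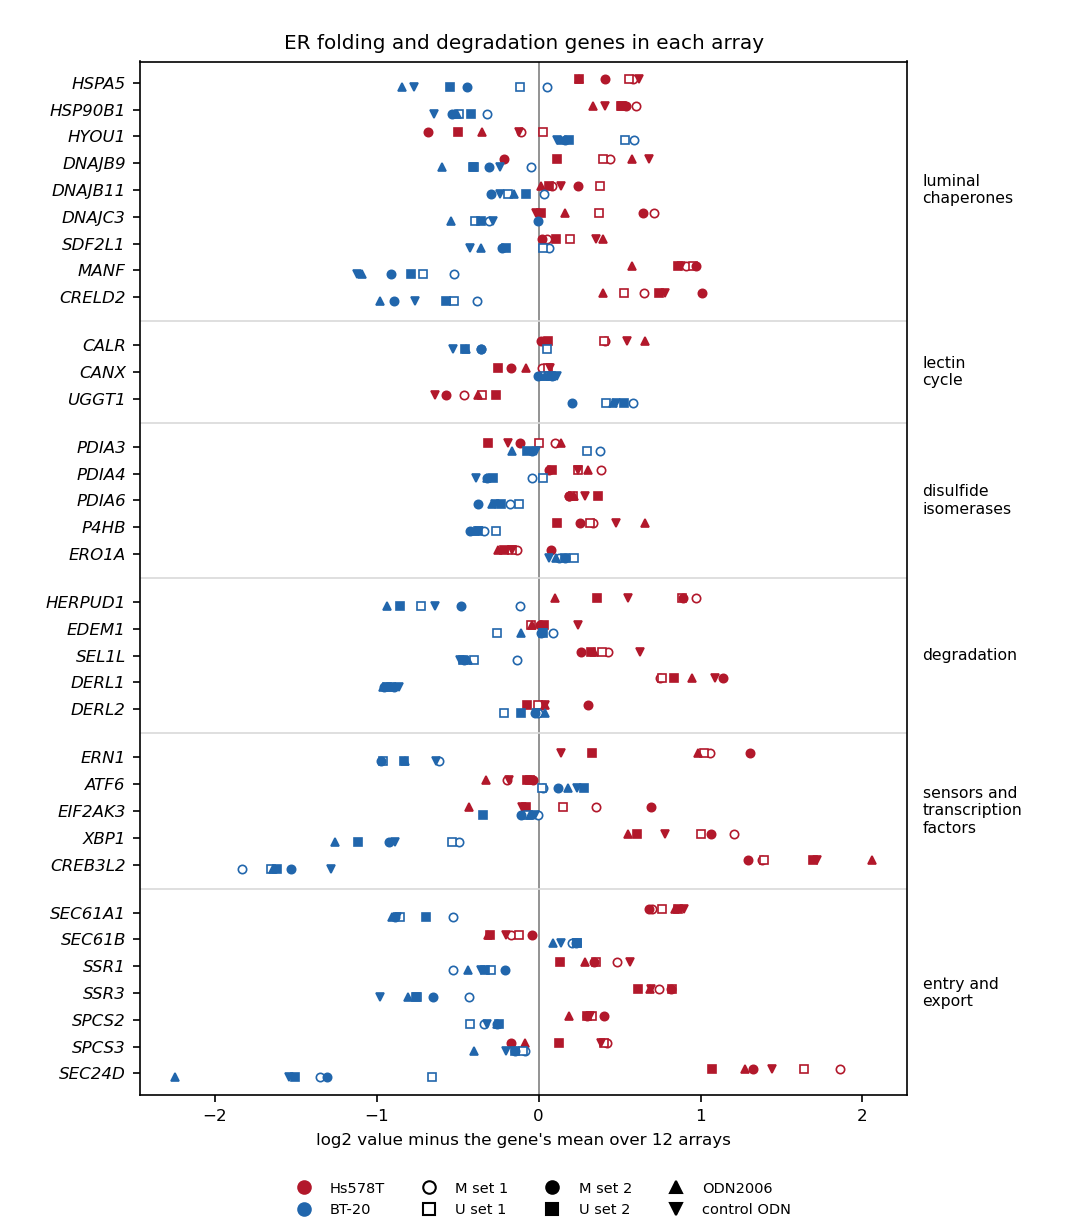
Value of each measured gene on each of the 12 arrays, as the log2 intensity minus the mean of that gene over all arrays (x axis, log2), with genes grouped by role. Red symbols are Hs578T and blue symbols BT-20; open symbols are set 1 and filled symbols all other arrays, with circles for M, squares for U, upward triangles for ODN2006 and downward triangles for the control ODN. The colours separate for 22 of 34 genes, most widely for CREB3L2, and mix for genes such as CANX, EDEM1 and EIF2AK3.

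Over all 6 arrays of each line, 18 members lay higher in every Hs578T array than in any BT-20 array (52.9%; 29.1% of all genes did), 4 lay lower in every Hs578T array (11.8%; 35.9% of all genes did), and 12 overlapped. The difference between the lines was above 0 in set 1, in set 2 and in the ODN arrays alike for 26 members. It was below 0 in all of them for 6, leaving PDIA3 and EIF2AK3, whose sign varied. The share of all genes that kept 1 sign was not counted, so these numbers show nothing particular to the members.

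Among the chaperones of the lumen, 6 of 9 were higher in Hs578T, 1 was lower, and the median difference was 0.70. HSPA5 (BiP), the HSP70 chaperone of the lumen that also holds the sensors inactive, ranged from 13.57 to 13.94 in the 6 Hs578T arrays (median 13.80) and from 12.47 to 13.37 in the 6 BT-20 arrays (median 12.82). The lines did not overlap, and the BT-20 arrays of set 1 were the ones nearest to Hs578T. The log2 difference over the M and U arrays was 0.71 (SE 0.16; limma adjusted p = 0.00654), a fold of 1.64. HSP90B1 (GRP94), the HSP90 of the lumen, lay between 12.03 and 12.29 in Hs578T (median 12.21) and between 11.05 and 11.38 in BT-20 (median 11.20), with little spread within either line. Its log2 difference was 0.98 (SE 0.09; limma adjusted p = 7.93e-05).

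MANF, a small protein of the lumen that is secreted under stress, showed the largest difference of the group. It ranged from 10.37 to 10.77 in Hs578T (median 10.70) and from 8.68 to 9.28 in BT-20 (median 8.95), a fold of 3.16 over the M and U arrays (log2 1.66, SE 0.11; limma adjusted p = 1.64e-05). CRELD2, another secreted stress protein, ranged from 10.01 to 10.63 (median 10.31) and from 8.63 to 9.24 (median 8.95). For both genes the gap between the lines was wider than the whole range of either line. The log2 difference of CRELD2 was 1.33 (SE 0.15; limma adjusted p = 0.000214). The J-domain partners of HSPA5 differed less. DNAJC3 was higher in Hs578T by 0.70 (SE 0.12; limma adjusted p = 0.00168) and DNAJB9 by 0.47 (SE 0.17; limma adjusted p = 0.0372), whereas DNAJB11 at 0.32 (SE 0.12; limma adjusted p = 0.0501) and SDF2L1, which acts with DNAJB11, at 0.18 (SE 0.11; limma adjusted p = 0.179) did not pass. In the ODN arrays the SDF2L1 difference was 0.77 and passed (SE 0.15; limma adjusted p = 0.00413).

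HYOU1 (GRP170), the nucleotide exchange factor and large relative of HSPA5, went the other way. It lay between 10.20 and 10.91 in Hs578T (median 10.65) and between 11.00 and 11.47 in BT-20 (median 11.06). The lines did not overlap, although the gap of 0.09 between them was smaller than the spread within either. The log2 difference was -0.68 (SE 0.20; limma adjusted p = 0.0186), and it was -0.36 in the ODN arrays, where it did not pass (limma adjusted p = 0.3003).

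The lectin cycle, which holds sugar-bearing proteins until they fold, gave 1 gene in each direction. UGGT1, which puts a glucose back on unfolded glycoproteins, ranged from 7.58 to 7.95 in Hs578T (median 7.80) and from 8.42 to 8.80 in BT-20 (median 8.68), so that every Hs578T array was below every BT-20 array. Its log2 difference was -0.84 (SE 0.11; limma adjusted p = 0.000469), but another of its probe sets gave 0.47 in the opposite direction and the mean of its probe sets -0.16, which did not pass (limma adjusted p = 0.182). CALR, the lectin of the lumen, was higher in Hs578T by 0.50 (SE 0.16; limma adjusted p = 0.0263), with overlapping arrays on the probe set used. Other CALR probe sets gave 0.795 and 1.645. On the latter, Hs578T (9.33 to 10.09) and BT-20 (7.06 to 8.64) did not overlap. The membrane-bound relative of CALR, CANX, gave -0.14 (SE 0.11; limma adjusted p = 0.285).

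Of the disulfide isomerases, which form and rearrange disulfide bonds, 3 of 5 were higher in Hs578T, by a median of 0.35 over the group. P4HB, the founding disulfide isomerase, was higher by 0.60 (SE 0.09; limma adjusted p = 0.000993), PDIA6 by 0.47 (SE 0.10; limma adjusted p = 0.00381) and PDIA4 by 0.35 (SE 0.13; limma adjusted p = 0.0491). The arrays of the lines did not overlap for these genes, but for PDIA4 the gap was 0.04, a second probe set gave -0.51, and the mean of its probe sets reversed the sign to -0.08 (limma adjusted p = 0.530). PDIA3, the isomerase that works with the lectins, gave -0.22 (SE 0.15; limma adjusted p = 0.227). ERO1A, the oxidase that recharges the isomerases, was lower in Hs578T by a small amount on the probe set used, with a log2 difference of -0.28 (SE 0.09; limma adjusted p = 0.0293). Its other probe sets gave -1.15 and -0.81, and it also passed with the mean of its probe sets.

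The degradation genes gave 3 of 5 higher in Hs578T and none lower, with a median of 0.72. DERL1, a membrane protein of the channel for export to the cytosol, ranged from 11.70 to 12.09 in Hs578T (median 11.84) and from 9.99 to 10.09 in BT-20 (median 10.03), a fold of 3.47 (log2 1.79, SE 0.11; limma adjusted p = 1.06e-05). The BT-20 arrays lay within 0.1 of each other. HERPUD1, a stress-induced scaffold of the ligase complex, spread more widely, from 11.02 to 11.89 in Hs578T (median 11.63) and from 9.98 to 10.80 in BT-20 (median 10.23), yet without overlap (log2 difference 1.32, SE 0.15; limma adjusted p = 0.000200). SEL1L, the adaptor of SYVN1, was higher by 0.72 (SE 0.11; limma adjusted p = 0.000855). EDEM1, which marks glycoproteins for disposal, gave 0.04 (SE 0.10; limma adjusted p = 0.751) and DERL2, the relative of DERL1, 0.15 (SE 0.10; limma adjusted p = 0.213).

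The sensors and transcription factors had the highest median difference of the roles, with 4 of 5 higher in Hs578T, none lower and a value of 1.74. CREB3L2, a transcription factor released from the ER membrane by cleavage and known for switching on secretory pathway genes, ranged from 9.95 to 10.72 in Hs578T (median 10.20) and from 6.82 to 7.38 in BT-20 (median 7.03). The gap between the lines, 2.57, was wider than the range within either. The fold was 8.56 (log2 3.10, SE 0.12; limma adjusted p = 9.27e-07). XBP1, whose mRNA the sensor ERN1 splices, ranged from 10.33 to 10.99 in Hs578T (median 10.68) and from 8.53 to 9.29 in BT-20 (median 8.88), and its log2 difference was 1.74 (SE 0.18; limma adjusted p = 0.000134); spliced and unspliced forms were not told apart here. ERN1 ranged from 6.39 to 7.55 in Hs578T (median 7.25) and from 5.28 to 5.63 in BT-20 (median 5.42), close to the level of 5 used as a filter. Its log2 difference was 1.77 (SE 0.18; limma adjusted p = 0.000112), and it came from the only probe set of ERN1 that reached 5, the others giving 0.35 and -0.02.

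The remaining sensors were nearer to each other in the lines. EIF2AK3 was higher in Hs578T by 0.41 over the M and U arrays (SE 0.13; limma adjusted p = 0.0230) and gave -0.23 in the ODN arrays (limma adjusted p = 0.304), and the arrays overlapped. ATF6 gave -0.20 in the M and U arrays (SE 0.10; limma adjusted p = 0.109) and was lower in Hs578T in the ODN arrays (-0.46, SE 0.14; limma adjusted p = 0.0252). All 6 Hs578T arrays were below all 6 BT-20 arrays for ATF6, but other probe sets of the gene gave 0.35 and 0.17.

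For protein entry and export, 5 of 7 genes were higher in Hs578T and 1 was lower, with a median of 0.67. SEC24D, a cargo-binding subunit of the COPII coat that carries proteins out of the endoplasmic reticulum, ranged from 9.88 to 10.67 in Hs578T (median 10.19) and from 6.57 to 8.15 in BT-20 (median 7.38). The ODN2006 array was the lowest of BT-20 and the U array of set 1 the highest, but all were far below Hs578T (fold 6.39; log2 2.68, SE 0.24; limma adjusted p = 6.07e-05). SEC61A1, the pore subunit of the entry channel, was higher by 1.49 (SE 0.11; limma adjusted p = 2.60e-05), whereas SEC61B, a small subunit of the same channel, was lower, with a difference of -0.39 (SE 0.09; limma adjusted p = 0.00697) and no overlap of the arrays. SSR3 and SSR1, subunits of the translocon-associated complex, were higher by 1.40 (SE 0.10; limma adjusted p = 2.20e-05) and 0.67 (SE 0.11; limma adjusted p = 0.00155). Of the signal peptidase subunits, SPCS2 was higher by 0.65 (SE 0.09; limma adjusted p = 0.000591) and SPCS3 gave 0.31 (SE 0.15; limma adjusted p = 0.0996). Other probe sets of SPCS3 gave 0.98 and 1.17, and the mean of its probe sets, 0.82, passed (limma adjusted p = 0.00285).

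**Figure D2:**
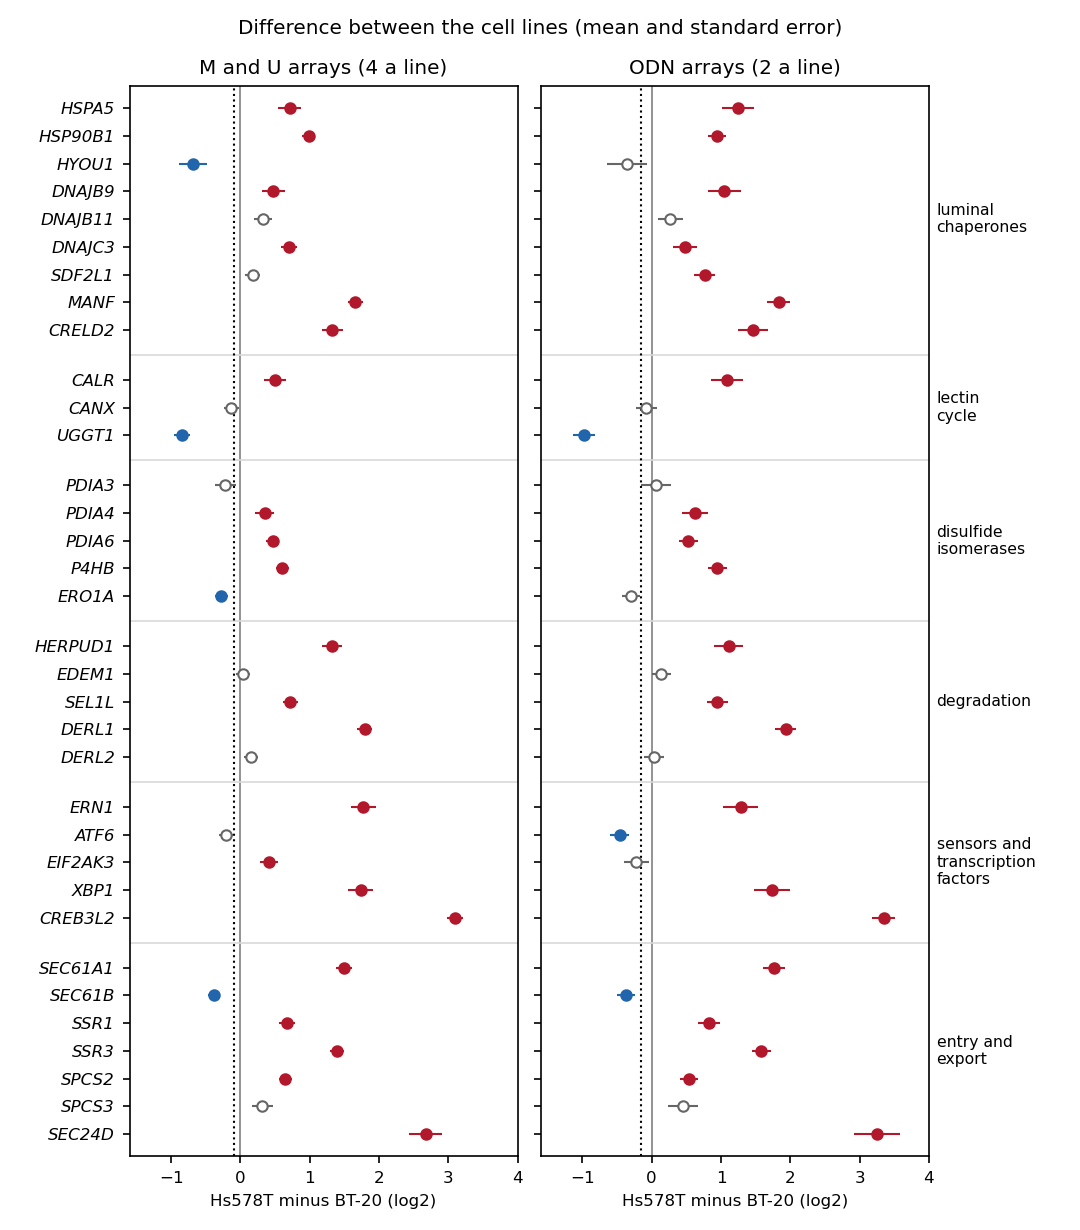
Log2 difference of Hs578T over BT-20 (x axis) for each measured gene, grouped by role, in the M and U arrays (left) and in the ODN arrays (right). Points are the fitted differences with bars of 1 SE, filled where the limma adjusted p was under 0.05, and the dotted line is the median of all genes tested (-0.09 and -0.15). Most points lie to the right of 0 in both panels, while UGGT1 and SEC61B were lower in Hs578T in both.

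The other genes of these pathways were also counted. Of 20 further folding genes tested, 13 were higher in Hs578T and 2 lower, among them the proline isomerase FKBP7 at 5.71 (SE 0.17; limma adjusted p = 2.98e-07) and the collagen chaperone SERPINH1 at 3.20 (SE 0.15; limma adjusted p = 2.72e-06). Of 21 further entry and glycosylation genes, 15 were higher and 3 lower, with the oligosaccharyltransferase subunit STT3A at 1.11 and the translocon-associated subunit SSR4 at -1.25. The further degradation genes (6 higher and 3 lower of 14) and the COPII genes (5 higher and 5 lower of 11) were split more evenly, with SEC23A at 2.03 and SEC31A at 1.77 against SEC16A at -1.65 and SAR1A at -1.51. Among 5 other ER-bound factors and their proteases, CREB3L1, the closest relative of CREB3L2, differed by 7.64 (SE 0.14; limma adjusted p = 3.02e-08) and CREB3L4 by -2.88 (SE 0.19; limma adjusted p = 1.44e-05). Of 16 genes of the ATF4 branch downstream of PERK, 10 were higher and 3 lower, ASNS (asparagine synthetase) by 3.85 and DDIT4 by 3.77.

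Of the 10 members with an ER stress element of either form, 7 were higher in Hs578T and 1 was lower, with a median of 0.61. Of the 21 measured members whose promoters were searched and held neither form, 13 were higher and 3 lower, with a median of 0.47; the difference between these groups was not tested. The choice of scale and array mattered for the smaller differences. When each array was centred on 15 housekeeping genes, the median of all genes shifted by -0.16 and that of the members to 0.39; DNAJB9, CALR, PDIA4 and EIF2AK3 no longer passed, EDEM1 (-0.12) and DERL2 (-0.01) changed sign, and ATF6 was lower (-0.36; limma adjusted p = 0.0136). Leaving out 1 of the 8 arrays ended the result for ERO1A in 7 cases, for DNAJB9, CALR and PDIA4 in 5 cases each and for HYOU1 and EIF2AK3 in 4 cases each, with limma adjusted p values of 0.0559 to 0.147, and brought DNAJB11 (0.40 to 0.41) past the threshold in 2 cases and SPCS3 (0.46) in 1. The number of members lower in Hs578T became 2 without the M or the U array of set 1 of BT-20 or without the U array of set 2 of Hs578T.

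The next comparison, methylated against unmethylated CDH13 sequence, is the one the series was designed for. No member passed the test in Hs578T (0% of 10410 genes did), in BT-20 (0%), over both lines (0%) or in the difference between the lines (0%). With limma and no adjustment, p was under 0.05 for 680, 174, 543 and 258 of the 10410 genes, respectively, and for 2, 0, 3 and 0 of the members. M and U of a set deviated together but were not paired in this fit, so the SEs and p-values of M against U are likely too large. With set as a block within line, no gene passed either. The median difference of the members over both lines was 0.04, beside -0.01 for all genes, and it was highest for the sensors (0.22) and lowest for the lectin cycle (-0.09).

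The members with the smallest unadjusted p over both lines were DNAJC3, HERPUD1 and EIF2AK3. EIF2AK3 (PERK) gave 9.16 with M against 8.96 with U in set 1 of Hs578T, and 9.51 against 8.73 in set 2. The same pairs in BT-20 were 8.81 against 8.75 and 8.71 against 8.46. M was above U in each pair, but most of the difference came from set 2 of Hs578T, where it was 0.78, and the value over both lines was 0.32 (SE 0.13; limma adjusted p = 0.937). DNAJC3, a co-chaperone also known to restrain PERK, was at 10.54 and 10.20 in set 1 and at 10.47 and 9.84 in set 2 of Hs578T, with M and U respectively. In BT-20 the values were 9.52 and 9.43 in set 1 and 9.82 and 9.47 in set 2. Here too M was above U in each pair (0.35 over both lines, SE 0.12; limma adjusted p = 0.937).

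For HERPUD1, set 1 of Hs578T gave 11.89 with M against 11.80 with U, and set 2 gave 11.81 against 11.28. The same pairs of BT-20 were 10.80 against 10.19 and 10.44 against 10.06. The pairs differed by 0.09 to 0.61, and the value over both lines was 0.40 (SE 0.15; limma adjusted p = 0.937). XBP1 differed by 0.20 and 0.45 in the sets of Hs578T and by 0.04 and 0.20 in those of BT-20 (0.22 over both lines, SE 0.18; limma adjusted p = 0.990). ERN1 varied most between sets: M minus U was 0.04 and 0.97 in the sets of Hs578T, and 0.34 and -0.14 in those of BT-20.

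M was above U in all 4 pairs of a line and set for 7 members (20.6%; 9.39% of all genes), namely HSPA5, DNAJC3, PDIA3, HERPUD1, DERL2, EIF2AK3 and XBP1, and below U in all 4 for PDIA6 alone (2.90%; 12.2% of all genes). This count was chosen after the data were seen and has no test. The differences were small, from 0.02 in set 1 of Hs578T for HSPA5 and DERL2 to 0.78 in set 2 for EIF2AK3. Members of the same sign in both sets were 14 higher and 6 lower with M in Hs578T and 10 higher and 5 lower in BT-20. The share of all genes with the same sign in both sets of a line was not counted, so these numbers have no background. The median over the members changed from set to set, at 0.02 and 0.12 in Hs578T and at 0.07 and -0.01 in BT-20.

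**Figure D3:**
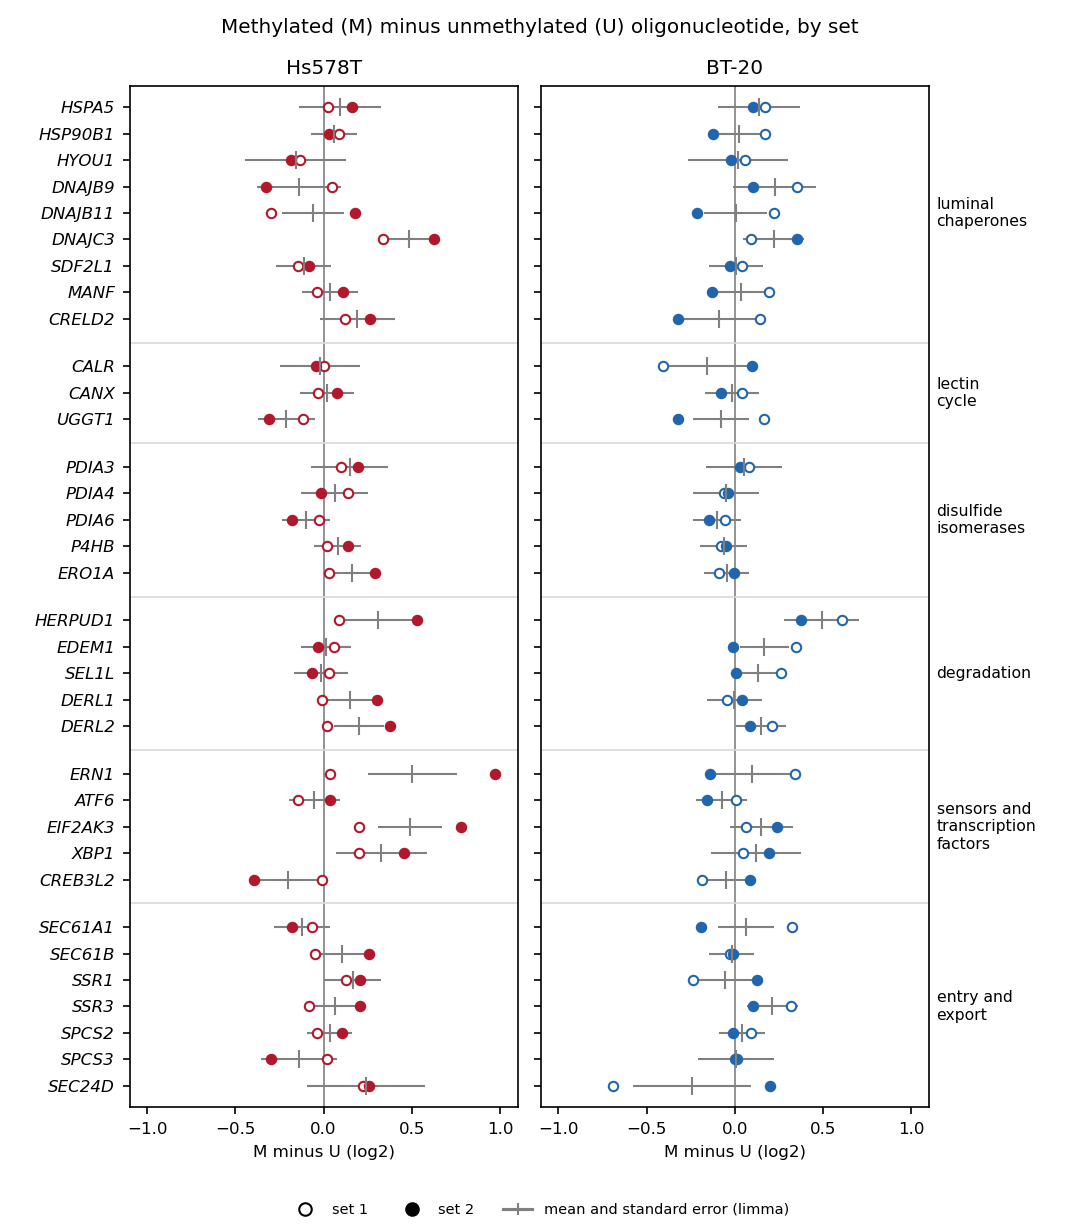
M minus U (x axis, log2 difference) of each measured gene in Hs578T and in BT-20, with an open symbol for set 1, a filled symbol for set 2 and a grey bar for the fitted mean ± 1 SE. The sets agree on the side of 0 for 20 genes in Hs578T and 15 in BT-20, with no count over all genes to set beside this. ERN1 and EIF2AK3 in set 2 of Hs578T lie farthest to the right (0.97 and 0.78).

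The related lists gave no gene past the test either. In BT-20 14 of the 16 genes of the ATF4 branch were above 0, with a median of 0.50, beside 48.6% of all genes, including SESN2 at 2.21 (SE 0.34) and DDIT3 (CHOP) at 0.97 (SE 0.22), both with a limma adjusted p of 1.00. In the same arrays 11 of 12 epithelial markers (median -0.13) and 11 of 14 mesenchymal markers (median -0.03) were below 0, and their part was not tested. The median of the ER members there was 0.01, 20 of 34 were above 0, and HSPA5, a classical marker of ER stress, was at 13.37 and 13.20 in set 1 and 12.88 and 12.77 in set 2, with M and U respectively. In Hs578T 9 of the 16 genes of the ATF4 branch were above 0, with a median of 0.08.

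ODN2006 was compared with its GpC control over both lines, with the error taken from the replicated M and U arrays, since each ODN had a single array per line. No member passed the test, against 0.00948% of the 10543 genes tested (1 gene; 490 had an unadjusted p under 0.05 in limma, 0 of them members). Of the members, 24 of 34 lay below 0 with a median of -0.06, which was also the median of all genes (-0.06; 35.1% above 0). In Hs578T, HERPUD1 gave 11.02 on the ODN2006 array and 11.47 on the control array, and in BT-20 it gave 9.98 and 10.28. It was lower with ODN2006 in both lines, by a mean difference of -0.37 (SE 0.21; limma adjusted p = 0.999). SEC24D, at -0.43, came mainly from BT-20, where the arrays gave 6.57 and 7.27. ERN1 went in opposite directions, with 7.23 for ODN2006 and 6.39 for the control in Hs578T but 5.43 and 5.62 in BT-20, and the difference between the lines was not tested.

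Finally, the ODN arrays of each line were compared with the M and U arrays of set 2. The ODNs are single-stranded with 24 bases, M and U are double-stranded with 30, and they also differ in sequence. At equal molar dose M and U carry more DNA, and the reagent was given per µg of DNA. The amounts of DNA and reagent thus differed too, and the part of each of these differences was not tested. In Hs578T 1 member passed the test, CALR (2.90% of the members; 9.03% of the 10375 genes tested), and it was higher with the ODNs, as were 3.87% of all genes, whereas 0 members and 5.16% of all genes were lower. CALR was at 10.68 with ODN2006 and 10.56 with its control, against 10.04 with M and 10.08 with U. Both ODN arrays were above both others, by a mean of 0.56 (SE 0.10; limma adjusted p = 0.0305). With 1 array per treatment and line, the error here is the spread between ODN2006 and its control and between M and U of set 2, taken as replicates of each other over both lines. Deviations of M and U of the same set from their group means were correlated (0.599 in Hs578T). The M and U arrays of set 1, which did not enter this test, were at 10.43 and 10.43. On this probe set the ODN arrays lay above those too, but by less. On the other CALR probe sets the ODN arrays also lay above M and U of set 2, but not above both arrays of set 1. On one, the ODN arrays (9.67 and 9.76) lay above M and U of set 2 (9.35 and 9.33). They lay below M and U of set 1 (10.09 and 10.09) there. On another, the ODN arrays (9.96 and 9.97) lay above M and U of set 2 (9.71 and 9.79). There they lay between M (9.73) and U (10.05) of set 1.

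The CALR result depended on single arrays, as did the number of all genes past the threshold. That number, 937 over all 8 arrays, was 50 without the Hs578T ODN2006 array, 257 without the Hs578T M array, 166 to 253 without 1 of the BT-20 arrays and 1510 without the Hs578T U array. CALR did not pass when the Hs578T M or ODN2006 array or any of the 4 BT-20 arrays was left out (0.50 to 0.56; limma adjusted p = 0.0652 to 0.107), and it passed without the Hs578T U array (0.58) or the control ODN array (0.62). In BT-20 the CALR difference was -0.08 (SE 0.10; limma adjusted p = 1.00), and the difference between the lines was 0.64 (SE 0.15; limma adjusted p = 0.154).

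Other members in Hs578T were near the threshold. DNAJB9 was at 9.08 and 9.19 in the ODN2006 and control arrays and at 8.29 and 8.62 in the M and U arrays (difference 0.68, SE 0.17; limma adjusted p = 0.0529). In set 1 its M and U arrays were at 8.95 and 8.90, nearer to the ODN arrays than to set 2. P4HB gave 0.38 (limma adjusted p = 0.0834), SDF2L1 0.31 (limma adjusted p = 0.0933) and HYOU1 0.36 (limma adjusted p = 0.112). EIF2AK3 was lower with the ODNs by value, at 8.38 and 8.71 against 9.51 and 8.73, and gave -0.57 (SE 0.26; limma adjusted p = 0.194). Without the U array of Hs578T, DNAJB9 (0.84; limma adjusted p = 0.0372) and EIF2AK3 (-0.96; limma adjusted p = 0.0308) passed too, making 3 members.

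In BT-20 no member passed, and neither did any gene (0%; 534 of 10375 genes had an unadjusted p under 0.05 in limma, 0 of them members). All 9 chaperones of the lumen and all 7 entry and export genes were below 0 there, but none of these differences passed the test. Their medians were -0.14 and -0.13, beside 0.00 for all genes, of which 49.2% were above 0. HSPA5, for example, was at 12.47 and 12.55 in the ODN2006 and control arrays and at 12.88 and 12.77 with M and U. The other roles were mixed. Above 0 were 2 of 3 lectin cycle genes, 2 of 5 disulfide isomerases, 3 of 5 degradation genes and 4 of 5 sensors. For the difference between the lines no member passed (0.270% of all genes did, 28 genes, and 1 to 123 with 1 array left out). Among the related genes in Hs578T, SAR1A (0.66; limma adjusted p = 0.0252), which starts COPII coat assembly, and TRIB3 (0.77; limma adjusted p = 0.0449), an ATF4 target, were higher with the ODNs. CHAC1, a glutathione-degrading ATF4 target, was lower by 2.34 (limma adjusted p = 0.0459), by the same pooled error. How these related genes change with 1 array left out is not given here. In these Hs578T arrays 12 of 14 mesenchymal markers were above 0 (median 0.19) and 9 of 12 epithelial markers below 0 (median -0.13), and their part was not tested.

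**Figure D4:**
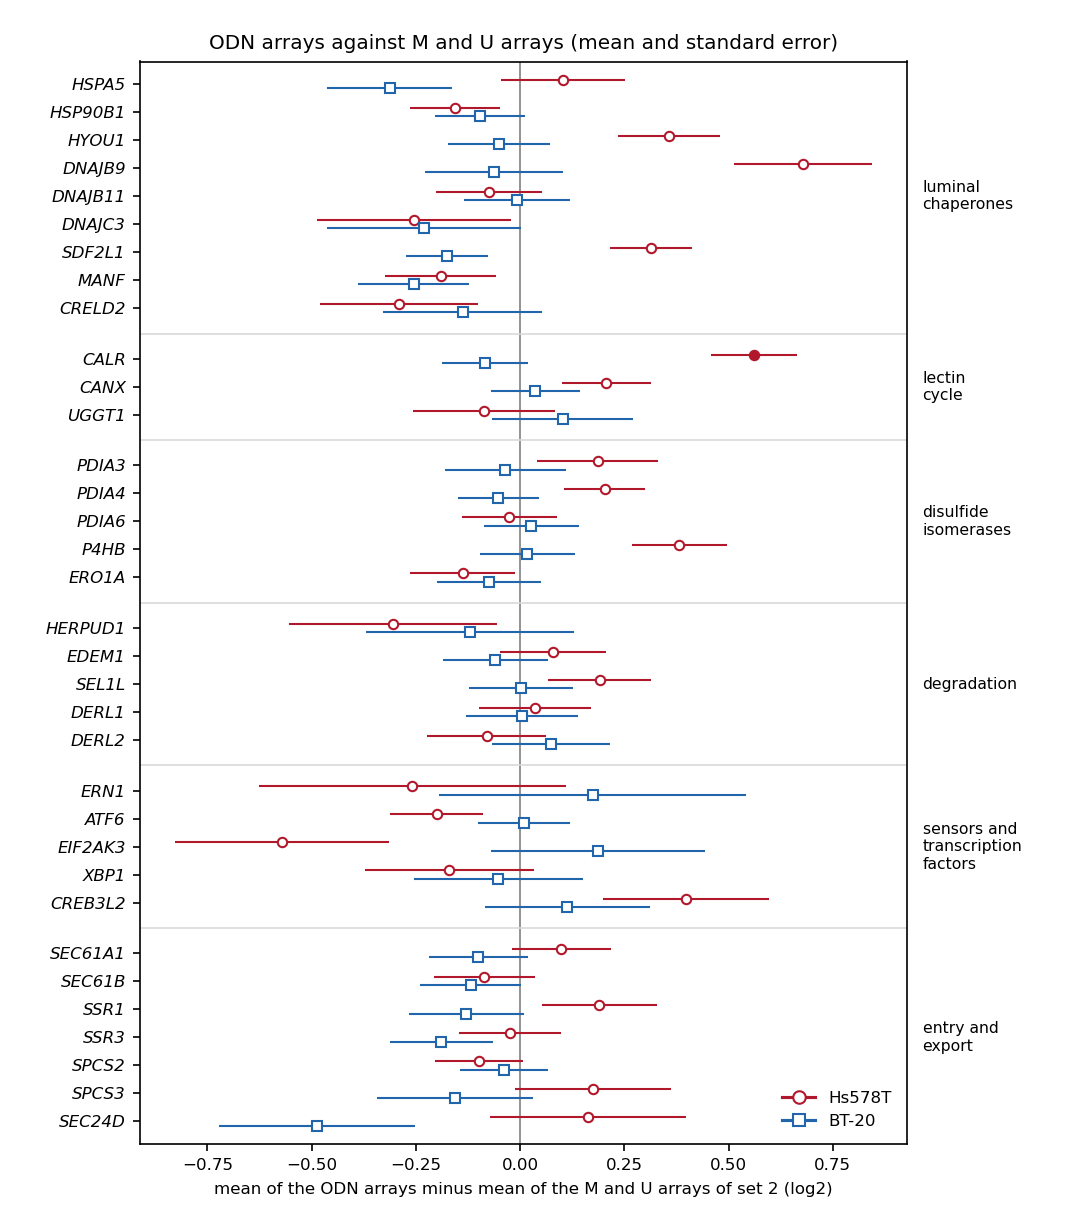
Mean of the ODN2006 and control arrays minus the mean of M and U in set 2 (x axis, log2 difference) for each measured gene in Hs578T and in BT-20, with bars of 1 SE and filled symbols where the limma adjusted p was under 0.05. CALR in Hs578T (0.56) is the only filled symbol.

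The sets themselves were compared because the ODN arrays go with set 2; this comparison was added after the data were seen. No member passed for set 1 against set 2 in Hs578T (2.74% of all genes did), in BT-20 (2.50%) or in the difference between the lines (1.28%), with M and U of a set taken as replicates. These shares rest on single arrays. In Hs578T 285 genes passed over all 8 arrays but 27 without the U and 46 without the M array of its set 1, and 112 without either BT-20 array of set 2. In BT-20 260 genes passed, but 30 without the M array of its set 1 or the U array of its set 2, 51 without the M array of its set 2, 55 without either Hs578T array of set 1 and 419 without the U array of its set 1. For the difference between the lines, 133 genes passed, and 26 to 234 with 1 array left out. By value, 23 members in Hs578T and 25 in BT-20 were above 0, with medians of 0.07 and 0.12 beside 0.05 and 0.04 for all genes, of which 57.8% were above 0 in each line. HYOU1 was at 10.78 and 10.91 in set 1 of Hs578T and at 10.20 and 10.38 in set 2, a difference of 0.55 (limma adjusted p = 0.0586) that can be set beside its difference of -0.68 between the lines. HSPA5 was at 13.37 and 13.20 in set 1 of BT-20 and at 12.88 and 12.77 in set 2 (0.46; limma adjusted p = 0.0914). HYOU1 and SPCS3 passed without the U array of set 2 of Hs578T.

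Within a line, over its 6 arrays, the members varied little. The median SD was 0.15 in Hs578T and 0.14 in BT-20, beside 0.24 and 0.17 for all genes tested. The members were at 5 or above on all 12 arrays, whereas a gene needed only 2 such arrays to be tested. The genes were not matched for brightness, and its part was not tested. The SD was largest for ERN1 (0.46) and EIF2AK3 (0.39) in Hs578T and for SEC24D (0.51) and HSPA5 (0.36) in BT-20, and it was 0.10 or less in both lines for PDIA6 and SPCS2. The probe sets of 5 members, HSP90B1, CALR, PDIA6, SEC61A1 and SPCS3, are of a class that may match other transcripts as well. Of 45 further probe sets of the members at 5 or above in at least 2 arrays, 7, in the 6 genes CANX, PDIA3, PDIA4, DERL2, ATF6 and UGGT1, gave the opposite sign between the lines.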

How the data were processed

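Per the labels, the 12 arrays were 2 per line of M and of U and 1 per line of ODN2006 and of the control ODN. The authors deposited 1 log2 value for each of 54675 probe sets, made with GCRMA in R 2.4 according to the submitters' processing notes; whether the arrays were normalised together is not given in the sources used here. GCRMA pulls dim probe sets towards a common low level, so differences of dim genes are compressed. Probe sets annotated to 1 gene (41097) were used and the brightest stood for each of 19775 genes. Genes at a log2 value of 5 or above in at least 2 arrays of a fit were tested with limma 3.58.1 in R 4.3.3 (1 coefficient for each group, contrasts, eBayes, 4 residual degrees of freedom, Benjamini-Hochberg over all genes tested, threshold 0.05). The fits were checked on simulated data with independent noise on each array, which cannot show their error rates where M and U deviate together. For ODN2006 against its control all 12 arrays entered, and for ODN against M and U arrays the 8 of the later code series. Groups were line by treatment, except that the latter fit joined ODN2006 with its control, and M with U, in each line, and the fit of set 1 against set 2 joined M with U; the arrays joined are different treatments used as replicates. Any member may be named, with up to 4 genes by smallest p from each related pathway list and up to 4 by difference from each marker list; VIM was named in addition, after its values were seen. Members, lists and comparisons were chosen with earlier results of these data known. Arrays of M and U of the same set deviated together from their group means, with a correlation of 0.599 in Hs578T and 0.595 in BT-20. Between lines it was 0.0984 to 0.131. Set was therefore also used as a block, within line for M against U. For Hs578T against BT-20 the block was 1 term shared by both lines, which does not take up the correlation within a line. Alternatives changed the filter, scaling, choice of probe set, floor and variance model, and left out each array. The number of arrays limits the precision. Promoters came from RefSeq (GRCh38.p14); protein sequences were not used here.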

Additional observations from a re-analysis of the deposited data

How the results depend on the processing

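In the comparison of Hs578T with BT-20, 18 of the 26 members past the threshold passed under all 16 tested alternatives. The exceptions were HYOU1, DNAJB9, CALR, UGGT1, PDIA4, ERO1A, ERN1 and EIF2AK3, of which ERN1 fell below the filter when all its probe sets were averaged. PDIA4 reversed to -0.08 with the mean of all probe sets and EIF2AK3 to -0.23 in the ODN arrays; the causes were not tested. The count of lower members ranged from 2 to 3 when 1 array was left out. With set as a replicate block shared by both lines, 27 members passed between the lines, PDIA3 being gained (-0.22; limma adjusted p = 0.0466). That block does not remove the correlation of M and U within a line. With the block within line, 0 passed in any of the M against U comparisons, as in the unpaired fits and all other alternatives. For the ODN arrays against M and U arrays in Hs578T, SDF2L1 and CALR passed with no filter. DNAJB9 and CALR passed with a filter of 6, housekeeping centring, the mean of all probe sets or values raised to 5. With trend and robust variances DNAJB9, CALR and P4HB passed, and leaving out 1 array gave 0 to 3 members. For set 1 against set 2 in Hs578T, 1 member (HYOU1) passed with housekeeping centring, the mean of probe sets, values raised to 5 or trend and robust variances, and 0 to 2 with 1 array left out; in BT-20, 2 (HSPA5 and PDIA3) passed with trend and robust variances. For ODN2006 against its control 150 genes were called with no filter in place of 1, but 0 members. With an ODN array left out, that comparison could be made in the other line alone, where 0 members passed. With 2 arrays a group and 4 residual degrees of freedom, differences within the spread of these arrays could not be resolved, and dim genes such as ERN1 in BT-20 lie near the background of the array.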
